A study of Mus musculus with 2 samples.

Results

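Intergenic Otp regions 1 to 100 kb from a gene were described in chromatin of adult wild-type (WT) mice, taken from the PVN, the paraventricular nucleus of the hypothalamus. Otp (Orthopedia) was mapped there with CUT&RUN, in which an antibody tethers a nuclease to chromatin in nuclei and the DNA that it releases is sequenced. The series holds 2 samples: 1 library with an antibody against Otp and 1 with IgG, a control antibody without a target. Both are labelled as PVN neurons of WT genotype. Nuclei were released by douncing and spun through a sucrose cushion. No sort for neurons is named, and the number of animals per library and any pooling are not given. The series set out to ask whether Otp sits at the promoter of Mc4r, a melanocortin receptor gene.

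A region, here a stretch that the authors' peak caller scored above its background, was included if it met 4 conditions. It lay on chromosomes 1 to 19 and overlapped no region of the IgG list. Its summit lay outside every protein-coding gene of RefSeq, more than 1 kb from the ends of genes of any kind, and at most 100 kb from the nearest end of a protein-coding gene. Of the 11379 regions in the Otp list, 1623 met the rule (14.3%, exact 95% binomial interval 13.6 to 14.9%). The other regions of chromosomes 1 to 19 without IgG overlap comprised 5304 at protein-coding gene ends (summit at most 1 kb away), 2817 inside protein-coding genes, 388 at ends of non-coding genes and 699 over 100 kb away. The regions were thus chosen by the deposited peak calls of both libraries and by summit position, and the deposited strengths are given below as a description. With 1 library per antibody, no value has a replicate and no test across samples was possible.

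Otp is a homeodomain transcription factor needed for the birth and maturation of neuroendocrine neurons of the PVN, among them those that make corticotropin-releasing hormone, thyrotropin-releasing hormone, vasopressin, oxytocin and somatostatin. Homeodomains contact short AT-rich DNA, typically around the core TAAT. Transcription factors bind at gene starts and at distal elements such as enhancers, which can act on genes far away and need not act on the nearest one. The nearest gene is therefore used below as a statement of position only.

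Sequence could be read only where a region fell in a RefSeq promoter window (build GRCm38.p6, which mm10 denotes). This was so for 3 intergenic regions, shown because their bases could be read. Each lay at an inner transcript start of a long non-coding RNA gene, inside that gene and 8539, 3294 and 2010 bp from the nearest annotated gene end of any kind (for 9430078K24Rik, Gm30296 and Gm34684). In addition, 3 regions at gene ends are shown, at the starts of Fos, Klf4 and Junb, because these immediate early genes also have an intergenic region (below). Capitals mark matches to the longer motifs listed after them, and all runs read 5′ to 3′ on the strand of the gene named.
9430078K24Rik, minus strand of chr12:79925445-79925744: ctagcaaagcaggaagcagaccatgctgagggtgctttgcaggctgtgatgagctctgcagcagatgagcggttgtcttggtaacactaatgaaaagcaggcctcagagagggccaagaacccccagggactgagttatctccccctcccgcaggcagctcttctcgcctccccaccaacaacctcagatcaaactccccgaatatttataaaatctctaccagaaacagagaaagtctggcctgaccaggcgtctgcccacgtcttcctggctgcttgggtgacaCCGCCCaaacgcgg
Gm30296, plus strand of chr12:102730615-102730703: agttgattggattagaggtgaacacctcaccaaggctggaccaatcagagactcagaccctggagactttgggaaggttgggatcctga
Gm34684, minus strand of chr17:9726040-9726161: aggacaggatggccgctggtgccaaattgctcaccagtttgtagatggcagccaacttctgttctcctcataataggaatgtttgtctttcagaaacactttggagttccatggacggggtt
Fos start, plus strand of chr12:85473788-85473881: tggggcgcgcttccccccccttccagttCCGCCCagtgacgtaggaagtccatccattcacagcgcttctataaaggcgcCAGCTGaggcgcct
Klf4 start, minus strand of chr4:55532512-55532597: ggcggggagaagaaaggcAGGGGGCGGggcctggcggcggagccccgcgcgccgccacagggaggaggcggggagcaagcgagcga
Junb start, minus strand of chr8:84978832-84978931: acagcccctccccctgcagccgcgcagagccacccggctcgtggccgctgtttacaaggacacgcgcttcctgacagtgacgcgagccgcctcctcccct

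The motifs were searched on both strands: the extended homeodomain sites TAATTA and TAATTG, the AP-1 site TGANTCA, part of the cAMP response element TGACGTC, the GC box GGGCGG, the E-box CAGCTG, part of the POU octamer ATGCAAA and part of the CTCF motif AGGGGGC. The region at 9430078K24Rik runs from chr12:79925422 to 79925754, and only its 300 bases inside the promoter window were printed and searched. These held 1 GC box, which 35.7% of all 32851 promoter windows hold in the same 300 bases. The region lay 77298 bp from the nearest protein-coding gene, Rad51b, a DNA repair gene, and had 19 sequenced tags at its summit. The regions at Gm30296 (12 tags, 9188 bp from Gm20604) and Gm34684 (7 tags, 56342 bp from Pabpc6) held none of these motifs. At the Fos start a GC box and an E-box were found, against 23.3% and 5.40% of promoter windows cut to the same 94 bases. The Klf4 start held a GC box that overlaps the letters AGGGGGC, against 19.7% and 4.15% of windows cut to the same 86 bases. The short core TAAT, searched after the sequences had been read and not set in capitals, was found once on either strand in each of the 3 intergenic sequences and not at the Fos, Klf4 and Junb starts. It occurs in 58.0%, 23.3% and 30.2% of promoter windows cut to the same 300, 89 and 122 bases. For the Fos, Klf4 and Junb starts the shares were 26.6%, 26.1% and 31.3%, in 94, 86 and 100 bases. Lacking the core is thus the more common outcome at these starts, and no contrast can be drawn from so few sequences. None of the 6 sequences held the longer TAATTA or TAATTG, which occur in at most 5.29% and 8.00% of promoter windows at these lengths. A match describes letters only, and an absent match says only that those letters are not in these windows. The GC content of the 3 intergenic sequences was 55.3%, 50.6% and 47.5%, and that of the Fos, Klf4 and Junb starts was 62.8%, 79.1% and 70%.

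The intergenic regions were narrow and mostly weak. A tag is a read or fragment as the authors' caller counted it, and the pileup is the number of tags that cover the summit. A pileup could be worked out for 1596 of the 1623 regions (98.3%). Its median was 10 tags (quartiles 8 and 13, range 6 to 69) over a median local background of 0.670 tags. Of these regions, 812 (50.9%) had 6 to 10 tags, 692 (43.4%) had 11 to 20, 76 (4.76%) had 21 to 40 and 16 (1.00%) had more than 40. The deposited fold enrichment had a median of 6.54 (quartiles 5.60 and 7.74, range 3.68 to 31.3). The median width was 100 bp, with quartiles of 83 and 143 bp.

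Regions at protein-coding gene ends of the same library were taller and wider, with a median of 15 tags (12 to 22), a fold enrichment of 7.57 and a width of 167 bp. A deposited −log10 q of at least 10 was reached by 283 intergenic regions (17.4%), 617 regions inside genes (21.9%) and 2422 at gene ends (45.7%). Regions over 100 kb from a gene had the same median of 10 tags as the intergenic ones, and 22.7% of them reached a −log10 q of 10. In the pileup plot the intergenic regions and those over 100 kb away share the lowest quartiles, while the gene-end regions have the highest.

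**Figure D1:**
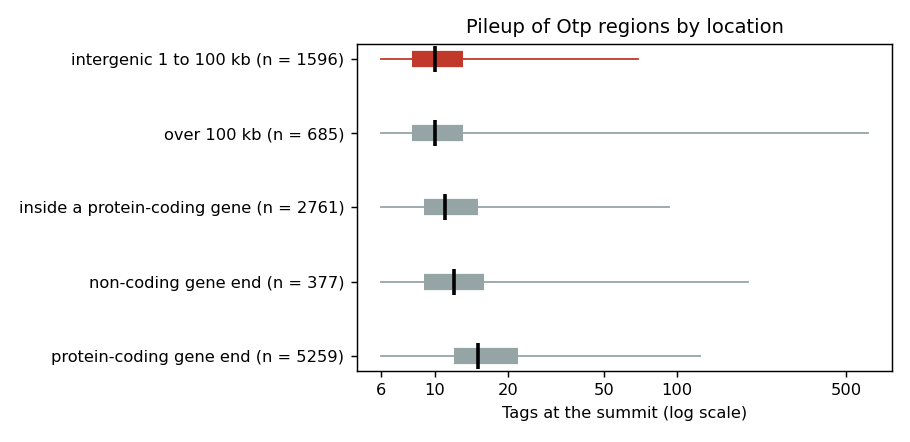
Pileup at the summit (tags, log scale) of Otp regions without IgG overlap in 5 locations; the black line is the median, the box spans the quartiles and the thin line the range. The median is 10 tags for intergenic regions, 11 inside protein-coding genes, 12 at non-coding gene ends and 15 at protein-coding gene ends.

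The depth of the IgG library limits how far these regions can be set against the control. The genome background, the lowest local background of a library, was 0.512 tags with Otp and 0.0873 tags with IgG, a ratio of 5.87, and the smallest pileup in the IgG list was 4 tags. Divided by that ratio, the median intergenic region would come to 1.70 tags in the IgG library, and the highest, beside Zfp825, to 11.8, with an IgG summit 270 bp from its own. The next highest, beside Ccnh, came to 11.4. A total of 61 regions (3.82%) came to 4 or more, against 21.8% of gene-end regions. For the rest, a difference from IgG was not detectable at this depth. For the 61 it was not shown either, since 4 tags is only the smallest pileup called with IgG. IgG regions that meet the same distance rule had a median of 16.5 tags. The distance rule without the IgG condition was also met by 47 Otp regions that overlapped an IgG region and were left out. Those had a median of 75 tags and a fold enrichment of 25.9, far above the regions described here. An IgG region lay within 10 kb of 8 intergenic regions (0.493%).

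The regions were spread thinly, and their density fell with distance from genes. Per megabase of sequence that meets the same distance rule, there were 2.33 intergenic regions (95% Poisson interval 2.22 to 2.45), counted over 690.9 Mb between the outermost protein-coding genes of each chromosome (10 of the regions lie outside that span). Sequence inside protein-coding genes held 2.99 per Mb (2.88 to 3.10), sequence over 100 kb from genes 1.00 (0.930 to 1.08), and sequence at protein-coding gene ends 71.0 (69.1 to 72.9). The intervals of these 4 kinds of sequence do not overlap. They cover counting error only, and the base counts include unsequenced gaps of the build and repeated sequence.

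Within the intergenic sequence, density was 3.09 regions per Mb (2.47 to 3.81) at 1 to 2 kb from a gene end and 2.63, 2.53 and 2.51 at 2 to 5, 5 to 10 and 10 to 20 kb. It was 2.24 (2.04 to 2.45) at 20 to 50 kb and 1.98 (1.78 to 2.20) at 50 to 100 kb. The interval of the farthest bin lies below that of the nearest bin, while those of neighbouring bins overlap. The regions themselves looked alike at all distances, with a median of 10 or 11 tags in each bin and 16.4 to 20.7% of them at a −log10 q of 10 or more. The median distance was 19543 bp, with quartiles of 7211 and 42963.5 bp. By chromosome the density ran from 1.73 per Mb (1.24 to 2.35) on chromosome 18 to 2.93 (2.37 to 3.57) on chromosome 11.

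**Figure D2:**
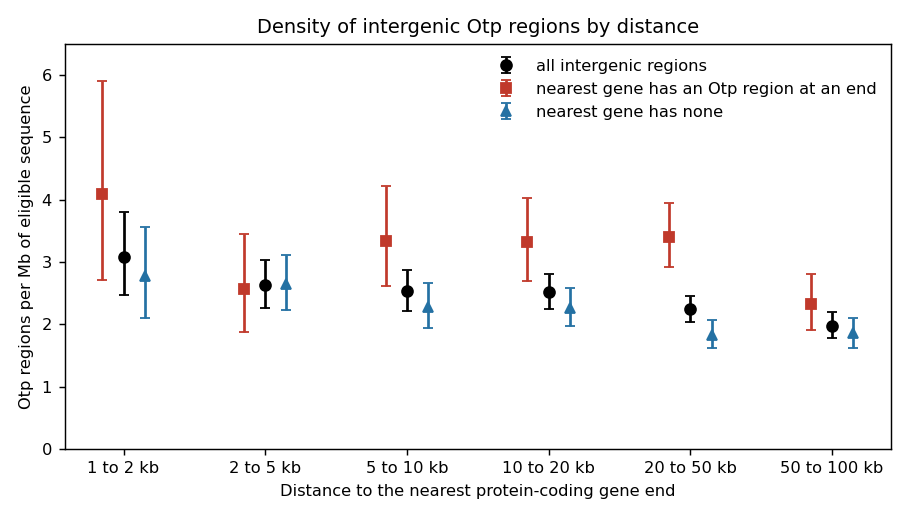
Intergenic Otp regions per Mb of eligible sequence (y axis) in 6 bins of distance to the nearest protein-coding gene end (x axis), for all regions and split by whether that gene has an Otp region within 1 kb of an end; bars are 95% Poisson intervals. The black points fall from 3.09 at 1 to 2 kb to 1.98 at 50 to 100 kb, and the red and blue intervals are apart at 10 to 20 and 20 to 50 kb.

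Sides of the nearest gene could be told for 1303 regions, those whose nearest gene has a strand in the RefSeq promoter table. Upstream of gene starts there were 2.26 regions per Mb (2.09 to 2.44), and downstream of gene ends 2.58 (2.38 to 2.79). The intervals overlap slightly. At 5 to 10 kb they did not: 3.27 per Mb downstream (2.68 to 3.95) against 2.09 upstream (1.66 to 2.60). At 1 to 2 kb the values were 2.63 downstream (1.76 to 3.77) and 3.43 upstream (2.44 to 4.69). Sequence between 2 gene starts, between a start and an end and between 2 ends held 2.48, 2.35 and 2.41 regions per Mb, with overlapping intervals.

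Non-coding genes overlapped part of the set. The summit lay inside a non-coding gene for 262 regions (16.1%, 14.4 to 18.0%). Density there was 2.70 per Mb (2.39 to 3.05) against 2.27 (2.15 to 2.40) outside all genes. Median pileups were 11 tags inside non-coding genes and 10 outside.

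The 1623 regions had 1377 different nearest genes, 6.66% of the 20665 protein-coding genes of chromosomes 1 to 19. Of these genes, 1182 were nearest to 1 region, 153 to 2, 35 to 3, 5 to 4 and 2 to 5. An Otp region at an end of the same gene (within 1 kb) was also seen for 438 of the 1377 (31.8%, 29.4 to 34.3%). Over all protein-coding genes this share was 28%, and over the 18391 genes that have eligible sequence of their own it was 26.9% (26.3 to 27.6%). These shares count every Otp region at an end, also one that overlaps an IgG region.

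Density also differed between these genes and the others. Around genes with an Otp region at an end there were 3.04 intergenic regions per Mb (2.78 to 3.31), against 2.10 (1.98 to 2.23) around genes without one. At 10 to 20 kb the values were 3.31 (2.69 to 4.03) and 2.26 (1.97 to 2.59), and at 20 to 50 kb 3.41 (2.92 to 3.95) and 1.83 (1.62 to 2.06). At 2 to 5 kb they were 2.57 and 2.64, with overlapping intervals. The pileups of the regions beside both kinds of gene had the same median, 10 tags.

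Regions often had no close neighbour. Another intergenic region lay within 10 kb, or was linked through others at such steps, for 188 regions (11.6%, 10.1 to 13.2%), which formed 78 pairs, 8 groups of 3 and 2 groups of 4. Any other Otp region lay within 10 kb of 288 regions (17.7%, 15.9 to 19.7%). Members of a group share a locus and are not independent.

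The activity-induced early genes, transcription factors and signalling genes that neurons switch on within minutes of stimulation, were the list with the highest share of nearest genes. Of 20 such genes, 9 were nearest to an intergenic region (45%, 23.1 to 68.5%), against 6.66% of all protein-coding genes. Together they had 11 regions, 10.7 per Mb of their own flanks (5.36 to 19.2), where a gene's own flanks are the eligible sequence to which it is the nearest gene. Of the 11, 3 lay beside Fos, 2 of them with summits 276 bp apart, and the interval treats all as independent. All protein-coding genes had 2.33 per Mb. The list's flanks were longer than usual, at a median of 33.8 kb against 14.9 kb, and the density takes that into account. The lists were chosen with earlier results of these data known, so these values describe the list and are not an independent test.

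Fos, the AP-1 subunit used as a marker of neuronal activity, was nearest to 3 regions, all upstream of its start. The strongest, chr12:85455187-85455584, was 398 bp wide and had 26 tags (Poisson interval 17.0 to 38.1) and a fold enrichment of 9.74, 18534 bp from the gene. A region of 12 tags stood beside it at chr12:85455008-85455108, 18810 bp away, and both lay inside the long non-coding RNA gene Gm38543. The third, chr12:85472133-85472311, had 13 tags at 1610 bp. At the Fos start itself, in the sequence printed above, the pileup was 14 tags (7.65 to 23.5), below the 26 tags of the distal region, with overlapping intervals.

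Other early genes had 1 region each. Nr4a3, an orphan nuclear receptor, had 20 tags 1735 bp upstream of its start (chr4:48043285-48043524). Ier2 had 18 tags at 1282 bp and Nr4a1, a relative of Nr4a3, 15 tags 7493 bp upstream. Junb, a further AP-1 subunit, had 15 tags 1297 bp upstream of its start, beyond the 12 tags at the start whose sequence is printed above. These regions lay 1282 to 7493 bp from their genes, and those of the next 4 genes lay 2291 to 59092 bp away.

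Klf4, a Krüppel-like factor, had 12 tags 12289 bp downstream of its end (chr4:55514793-55514880), and 15 tags at its start. Egr1, a zinc finger factor, had 12 tags at 5776 bp and 25 tags (16.2 to 36.9) at its own end region. Its relative Egr3 had 8 tags at 2291 bp, and Atf3, a stress-induced factor, had 9 tags 59092 bp upstream. The 11 pileups ran from 8 to 26 tags, and only the highest, beside Fos, came to 4 tags or more when scaled to the IgG background (4.43). At that bound 1 of the 20 early genes (5%) was a nearest gene, against 56 of all protein-coding genes (0.271%). With only regions of a −log10 q of 5 or more counted, 6 of the 20 were nearest genes, against 4.59% of all. With a −log10 q of 10 or more, 2 of the 20, Fos and Nr4a3, were, against 1.3% of all. A gene-end region was carried by 9 of the 20 early genes (45%), against 28% of all protein-coding genes. Among those 9, Jun, Jund, Arc, Btg2 and Dusp1 had no intergenic one.

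**Figure D3:**
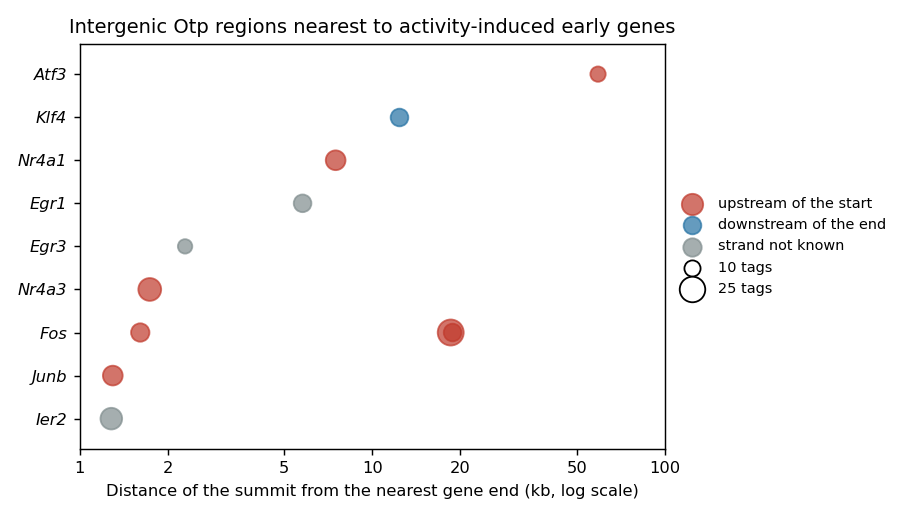
The 11 intergenic Otp regions nearest to 9 activity-induced early genes, by distance of the summit from the nearest gene end (kb, log scale); point area follows the pileup in tags and colour gives the side of the gene. The largest point is the Fos region of 26 tags at 18534 bp, and 4 genes have a region within 2 kb.

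Genes of neurons came next by share. Of 16 pan-neuronal genes, 6 were nearest to a region (37.5%, 15.2 to 64.6%), but their flanks are long, at a median of 113.8 kb, and the density was 3.89 per Mb (1.57 to 8.02), an interval that includes the 2.33 of all genes. Snap25, a SNARE protein of synaptic vesicle release, had the strongest, of 24 tags (15.4 to 35.7) at a fold enrichment of 10.3 and 33370 bp (chr2:136679903-136680145), inside the long non-coding RNA gene Gm32659. The start or end of Snap25 itself carried 13 tags. Syt1, the calcium sensor of vesicle release, was nearest to 2 regions, of 10 tags 68955 bp upstream and 9 tags 27114 bp downstream. Map2, a dendritic cytoskeletal protein, had 13 tags 26274 bp upstream, and Syn2, a synapsin, 11 tags 11363 bp upstream. Each of the 4 also carried a gene-end region, and Stmn2 and Rbfox1 had the intergenic one only.

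Of 12 glutamatergic genes, 4 were nearest genes (33.3%, 9.92 to 65.1%, against 6.66% of all genes). Their flanks are long, at a median of 104.7 kb. The density was 4.27 per Mb (1.39 to 9.96), an interval that includes the 2.33 of all genes. A gene-end region was carried by 0 of the 12, against 28% of all protein-coding genes. Gria2 and Gria1, AMPA receptor subunits, had 15 tags 72902 bp and 13 tags 72900 bp away. A second region beside Gria1, for which no pileup could be worked out, had its summit 113 bp from the first. The density counts 5 regions and treats these 2 as independent. Slc17a6, the vesicular glutamate transporter of most PVN neurons, had 14 tags 78814 bp downstream, and Grin2a, an NMDA receptor subunit, 8 tags at 24407 bp. All 4 genes had their regions more than 20 kb away.

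Of 10 GABAergic genes, 2 were nearest genes, Dlx2 and Dlx6, homeodomain factors of GABAergic forebrain neurons (20%, 2.52 to 55.6%; 9.84 regions per Mb, 2.68 to 25.2). The values of all protein-coding genes were 6.66%, inside the interval of the share, and 2.33 per Mb. Dlx2 was nearest to 3 regions 52273 to 80716 bp upstream, of which the strongest had 12 tags. The Dlx6 region, of 9 tags, lay inside the antisense transcript gene Dlx6os1. The density interval lies just above 2.33 but rests on 4 regions at 2 loci, and it treats these as independent.

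PVN neuropeptide genes were nearest to a region in 4 of 19 cases (21.1%, 6.05 to 45.6%; 4.30 regions per Mb, 1.58 to 9.37). Both intervals include the values of all protein-coding genes, 6.66% and 2.33 per Mb. Penk, the enkephalin precursor, had 13 tags at 1471 bp (chr4:4140240-4140327), with a fold enrichment of 9.16. Scg2, a granin of secretory granules, was nearest to 3 regions, of 13 tags 10556 bp upstream, 13 tags 9449 bp downstream and 9 tags 1608 bp downstream, and had 15 tags at an end. Trh, the precursor of thyrotropin-releasing hormone, had 10 tags 21448 bp upstream (chr6:92266043-92266168) and 12 tags within 1 kb of an end. Cartpt, an appetite-restraining peptide gene, had 10 tags 83403 bp downstream. Avp, Oxt, Crh and Sst, which mark the classical neuroendocrine cells of the PVN, were nearest to none, as are most genes (6.66% are nearest to one), and the own flanks of Avp and Oxt are only 0.00349 and 0.00435 Mb long.

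Among 28 energy balance genes, 3 were nearest genes (10.7%, 2.27 to 28.2%; 1.17 regions per Mb, 0.241 to 3.42). Both intervals include the values of all protein-coding genes, 6.66% and 2.33 per Mb. Oxtr, the oxytocin receptor, had 12 tags 19545 bp upstream and a region at an end. Cpe, which trims peptide precursors, and Mrap2, the accessory protein of Mc4r, had 9 tags each, the first 43907 bp from the gene and the second 28560 bp upstream of the start. Mc4r itself was nearest to no intergenic region. None of the 28 was nearest to a region whose −log10 q reached 10, against 1.3% of all genes.

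Transcription factors formed 2 lists, whose intervals overlap. Of 18 factors of the PVN lineage, such as Sim1, Arnt2 and Otp itself, 1 was a nearest gene (5.56%, 0.141 to 27.3%, against 6.66% of all genes): Bcl11b, with 6 tags 2268 bp upstream. The density over this list was 0.483 per Mb (0.0122 to 2.69, an interval that includes the 2.33 of all genes). A gene-end region was present at 6 of the 18 (33.3%, against 28% of all genes). Of 34 broader neurodevelopmental factors, 9 were nearest genes (26.5%, 12.9 to 44.4%), but with flanks of a median of 166.1 kb their density was 2.09 per Mb (1.00 to 3.84), close to the value over all genes.

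Some of the stronger regions stood beside neurodevelopmental factors. Mef2c, a MADS-box factor of neuronal differentiation, had 28 tags (18.6 to 40.5) and a fold enrichment of 10.9 at 78047 bp downstream (chr13:83745020-83745206). Sox11, a factor of newborn neurons, had 19 tags 85617 bp downstream and 23 tags at an end. Zbtb20 had 16 tags 93078 bp upstream, well below the 97 and 41 tags of its regions at an end. All 3 of these regions lay more than 50 kb from the gene.

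Of 28 adhesion and axon guidance genes, 5 were nearest genes (17.9%, 6.06 to 36.9%), at 1.16 regions per Mb of their long flanks (0.378 to 2.71). Both intervals include the values of all protein-coding genes, 6.66% and 2.33 per Mb. Ncam1, a neural adhesion molecule, had 23 tags and a fold enrichment of 12.5 at 74366 bp (chr9:49873715-49873912). Ctnna2, a neuronal catenin, had 18 tags 89848 bp downstream, and Ncam2 and Lsamp had 12 and 14 tags.

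Markers of other cell types that the tissue could hold were counted in the same way, against 6.66% of all genes and 2.33 regions per Mb. Of 11 astrocyte genes, 3 were (27.3%, 6.02 to 61.0%; 2.85 regions per Mb, 0.588 to 8.34), and Nfib had the strongest of these regions, with 16 tags. Of 11 oligodendrocyte lineage genes, 3 were (27.3%; 6.14 per Mb, 1.27 to 17.9): the myelin genes Mobp, Mog and Mbp, with 14, 12 and 9 tags. The microglia, vascular and ependymal, and neighbouring hypothalamus lists had 1 nearest gene each, of 11, 10 and 17 (9.09%, 10% and 5.88%, near the share of all genes), among them Rgs5, a pericyte gene, and Th, the enzyme that starts dopamine synthesis. The list of non-neural organs had 1 of 15, Gcg, and the housekeeping list 0 of 13 (up to 24.7%), with short flanks of a median of 3.26 kb. Neuronal and glial lists have overlapping intervals, and binding positions alone do not check the label of neurons.

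**Figure D4:**
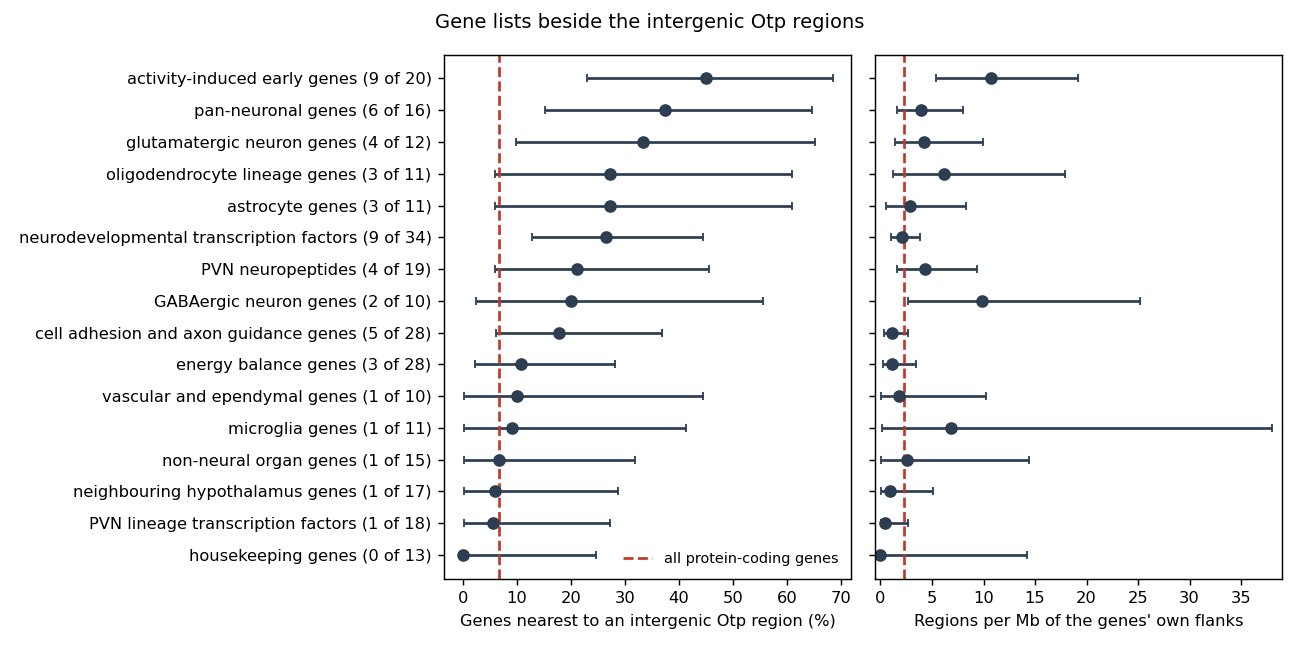
Left, share of each gene list that is the nearest protein-coding gene of an intergenic Otp region (percent, exact 95% binomial interval); right, regions per Mb of the genes' own flanks (95% Poisson interval), with dashed lines for all protein-coding genes. The interval of the early genes lies above the dashed lines of 6.66% and 2.33 per Mb in both panels, while the pan-neuronal interval includes the line in the right panel. The lists were chosen with earlier results of these data known.

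None of the 20 strongest regions, counting each linked group once, was nearest to a gene of these lists. The lists hold only 272 of the 20665 protein-coding genes of chromosomes 1 to 19. With so small a share, the lack of a match among 20 regions is unremarkable, and no contrast can be drawn from it. The highest −log10 q, 86.7, belonged to chr13:85127077-85127206, which had 67 tags (51.9 to 85.1), at a fold enrichment of 31.3 and 62206 bp from Ccnh, which encodes cyclin H. Next came 47 tags 15603 bp from Adgre5, an adhesion receptor of leukocytes (chr8:83756794-83756986), and 42 tags 38214 bp upstream of Csf2ra, a cytokine receptor subunit. A region of 44 tags 52192 bp from Tmem161b (chr13:84347938-84348355) lay inside the long non-coding RNA gene Gm41011, on the chromosome that also holds the Mef2c and Ccnh regions. A region of 52 tags (chr15:73067401-73067839) lay 6414 bp from Trappc9, a trafficking complex subunit gene with its own region at an end. Only 16 regions with a pileup exceeded 40 tags.

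Further strong regions were nearest to Stt3b, a catalytic subunit of protein glycosylation, with 32 tags 40413 bp upstream, to Ccne1, cyclin E1, with 38 tags 12957 bp downstream, and to Rhob, a small GTPase, with 34 tags 44172 bp downstream. Those 3 genes each had a gene-end region too, of which that at Stt3b overlapped an IgG region. Klrb1b, a receptor of natural killer cells, had 46 tags at 10447 bp. The other genes among the 20 strongest were Eno1b, Morn3, Bri3bp, Ktn1 and Gm32856, with 26 to 37 tags, and Pdia4, Gm40363 and Gm40369, described below. For 3 of the 20, beside Zfp825 (69 tags), Aadac (38) and Ly6c2 (63), an IgG summit lay 270, 502 and 506 bp from the region's own.

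Genes with the most intergenic regions were of several kinds. Chd2, a chromatin remodeller linked to epilepsy, and Zfp648, a zinc finger gene, were nearest to 5 each. Those of Chd2 were strung from 53585 to 95944 bp from the gene with 8 to 15 tags, and those of Zfp648 had 11 to 14 tags. Kcnd3, a potassium channel gene, was nearest to 4 upstream regions of 8 to 17 tags, Rpap3 to 4 downstream regions of 10 to 15 tags and Ccdc54 to 4 of 7 to 12 tags. Upstream of 9230019H11Rik, 4 regions of 18 to 23 tags lay between 3400 and 9802 bp away. Their local background was 2.34 to 3.15 tags and their fold enrichment 5.07 to 5.84, below the median of 6.54 over all intergenic regions. Another 3 regions of 17 to 24 tags stood 15178 to 17181 bp downstream of Gm40035. Vmn1r77, a vomeronasal receptor gene, was nearest to 3 regions, of 11, 23 and 13 tags.

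A run of tall regions lay on chromosome 6 between Ezh2 and Pdia4. From chr6:47655176 to 47788645 the Otp list held 20 regions, of which 9 were intergenic by the rule and the others lay in or at ends of genes, and the IgG list held none. The intergenic ones had 20 to 61 tags, 8 of the 9 had at least 50, and their fold enrichment was 5.55 to 10.6 over a local background of 2.36 to 8.21 tags. Of the 12 intergenic regions in all with a local background of at least 4.5 tags, 8 were here. Many of the summits were evenly spaced: 12 of the 19 steps between neighbours measured 4266 to 4410 bp. The other steps ran from 380 to 51823 bp. The first summit lay 113 bp past the annotated end of Rn4.5s, a 4.5S RNA gene (47654921 to 47655094). RNA genes of this kind are known from tandem arrays in rodents, and how the authors' aligner placed reads with several equal matches is not given in the sources used here. The part of repeated sequence in these pileups was not tested.

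**Figure D5:**
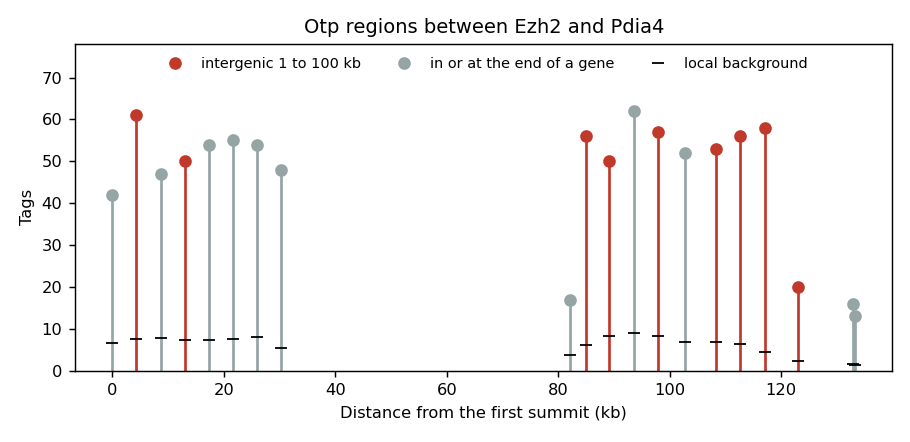
Pileup (tags) of the 20 Otp regions between Ezh2 and Pdia4 by distance from the first summit (kb), with the local background as a dash; red stems are intergenic regions and grey stems lie in or at the end of a gene. Of the 9 red stems 8 reach 50 tags or more, and most neighbours are 4266 to 4410 bp apart.

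The bounds of the rule cut through similar regions. Just inside the 1 kb bound were regions of 11 tags each at 1003, 1005 and 1010 bp from a gene of any kind, nearest to the protein-coding genes Ccl21a, Haao and Dner. Just outside it were regions of 7, 12 and 15 tags at 999, 998 and 997 bp from Fam83a, Socs1 and Pdk2. Just inside the 100 kb bound, Ipmk had 11 tags at 99744 bp, Gramd3 a fold enrichment of 7.43 at 99412 bp and Ube2cbp 9 tags at 98701 bp. Just outside it, Eno1b had 7 tags at 100085 bp, Myo16 11 tags at 100430 bp and Ddx1 8 tags at 100595 bp.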

How the data were processed

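CUT&RUN was done with 1 Otp and 1 IgG library, grouped by the label for the antibody. The authors deposited 1 peak list per library, called per sample. Per the submitters' processing notes, reads were handled with MACS2, Bowtie2, SAMtools, Picard and Trimmomatic on mouse build mm10. What is not given in the sources used here includes versions, settings, duplicate handling, multiple matches and any control used in calling. The deposited values are a fold enrichment ratio, −log10 p and −log10 q at the summit, and the summit's offset. They are the authors' own and were used to describe, rank or filter regions within the list. The deposited display score was not used.

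Pileups were derived from the deposited fold and −log10 p. The caller's fold is pileup plus 1 over background plus 1 and its p a Poisson tail, so a whole pileup was accepted if its −log10 p came within 0.001 of the deposited one while that of the next best whole number was off by over 0.005. The genome background is the lowest value shared by at least 3 regions. Poisson intervals (95%) of pileups and densities and exact Clopper-Pearson intervals of shares cover counting error only, since PCR copies are not independent molecules. The lists give no read totals, so total depth is unknown.

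Genes came from the NCBI RefSeq table of GRCm38.p6, and strand from its promoter table, for 16457 of 20665 protein-coding genes and none of chromosome 18. Promoter windows span 250 bases before to 50 after the start, and motif shares were counted in the same bases of each window. The IgG condition used an overlap of at least 1 bp. The bases that meet the distance rule were counted exactly, and the pileup and counting steps were tested on simulated data. The core TAAT was added to the search after the sequences had been read. The search for motifs at all summits needs a genome sequence and was not run here.

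The regions, the 16 gene lists (272 genes on chromosomes 1 to 19) and the 14 symbol families were chosen with earlier results of these data known. Named genes were those of the 20 regions with the highest −log10 q (1 per group linked within 10 kb), the 10 nearest to most regions, up to 4 per list and 3 on each side of each bound. Stmn2, Rbfox1, the remaining early genes, the genes named for lacking an intergenic region, Rad51b, Gm20604, Pabpc6 and the stretch between Ezh2 and Pdia4 were added after their values were seen. Results at 2 listed genes are not reported here. Alternatives were other distance bounds, stricter −log10 q, other IgG and overlap rules, and counting groups once. Python 3.11.15, numpy 2.4.6, pandas 2.3.3, scipy 1.17.1 and matplotlib 3.10.9 were used.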

Additional observations from a re-analysis of the deposited data

How the results depend on the processing

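No paired analysis was possible because each antibody has 1 library. The number of regions, 1623, became 1059 with a lower bound of 5 kb, 1064 and 283 when a −log10 q of 5 and 10 was required, and 61 at 4 or more tags scaled to the IgG background. The median fold enrichment of 6.54 became 7.28, 9.51 and 11.5 under the last 3. The median distance of 19543 bp became 17696 and 25283 bp with lower bounds of 500 bp and 5 kb, 13740 and 26325.5 bp with upper bounds of 50 and 200 kb, and 17811 bp at a −log10 q of 10. The share with another intergenic region within 10 kb, 11.6%, was 8.07% within 5 kb and 25.8% within 50 kb, and 8.08% and 6.71% at a −log10 q of 5 and 10. The share of nearest genes that also carried a gene-end region, 31.8%, was 29.3% with a window of 500 bp and 50.1% with one of 5 kb, which takes in some of the intergenic regions themselves. The share of early genes, 45%, fell to 10% at a −log10 q of 10 and 5% at 4 scaled tags. The bounds and thresholds act by taking in fewer or more regions. Another 30 values of these results stayed within their intervals or within 1.5 times the count. Among the other gene lists 26 values moved and 34 did not. The scaled threshold and leaving out the stretch between Ezh2 and Pdia4 were chosen after seeing the data. The alternatives for motifs at summits were not run, as no genome sequence was used. With 1 library each, no spread between animals is known, and an IgG background of 0.0873 tags limits what the control can show.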

Other observations

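Families of genes grouped by symbol after the data were seen differed in how often they were nearest to an intergenic region. Of 1104 olfactory receptor genes 9 were nearest genes (0.815%, 0.373 to 1.54%), at 0.437 regions per Mb of their own flanks (0.209 to 0.803), and of 352 vomeronasal receptor genes 5 were (1.42%; 0.574 per Mb, 0.262 to 1.09). Both intervals lie below the 6.66% and 2.33 per Mb of all protein-coding genes, and no olfactory receptor gene carried a gene-end region. All densities here count every base, including unsequenced gaps of the build and repeated sequence. The part that these play in the family values was not tested. Predicted genes named Gm were nearest genes in 47 of 967 cases, at 1.48 per Mb (1.12 to 1.92). Of 92 potassium channel genes 14 were nearest genes (15.2%, 8.58 to 24.2%), with 3.33 regions per Mb (2.01 to 5.21), an interval that includes the value of all genes.

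For other families the counts at gene ends and between genes were set beside the 28% of all protein-coding genes with an Otp region at an end and the 6.66% nearest to an intergenic one. Of 79 cytosolic ribosomal protein genes, 50 carried a gene-end region (63.3%) and 2 were nearest to an intergenic one (2.53%, 0.308 to 8.85%, an interval that includes the share of all genes). Of 78 mitochondrial ribosomal protein genes the counts were 42 (53.8%) and 5 (6.41%). Of 388 zinc finger genes named Zfp, 166 had a region at an end (42.8%) and 25 were nearest genes (6.44%), at 2.86 per Mb (1.98 to 4.00). Of 16 Krüppel-like factor genes 10 had a region at an end (62.5%) and 3 were nearest genes (18.8%, 4.05 to 45.6%). Solute carrier genes (28 of 362), genes ending in Rik (28 of 391), Sox and forkhead factors (8 of 59), nuclear receptors (3 of 25) and cadherins and protocadherins (5 of 90, 1.16 per Mb) had densities whose intervals include 2.33 per Mb, as did the Hox clusters, with 0 of 39.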
